A study of Drosophila sechellia and Drosophila melanogaster and Drosophila simulans with 18 samples.

Results

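The Turandot genes of *Drosophila* encode small secreted peptides that accumulate in the blood of stressed or infected flies. The genes described here are *TotA*, *TotB*, *TotC*, *TotF*, *TotM*, *TotX* and *TotZ*, which are 7 of the 17649 genes in the *D. melanogaster* table. They were chosen by symbol, with earlier results of these data known, so their values are given as a description without a test. The tables of *D. simulans* (15372 genes) and *D. sechellia* (17273 genes) list 0 genes under these symbols, and the Turandot genes of those species were not analysed here.

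Turandot peptides are made mainly in the fat body, the insect counterpart of liver and adipose tissue. In the humoral response, Unpaired cytokines bind the receptor Domeless, which acts through the Janus kinase Hopscotch and the transcription factor Stat92E. The stress kinase Mekk1 and the Imd pathway, with its NF-kB factor Relish, also take part in turning the genes on, and heat, oxidative stress, ultraviolet light and bacteria are known inducers. The peptides have been described as protecting the fly's own tissues against its antimicrobial peptides.

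Adult females of 3 species were fed control food or food with 10 mg/ml L-DOPA, the precursor of dopamine, for 24 hr. Each food and species had 3 libraries, each from the RNA of 10 whole females collected at most 3 days after eclosion and reared at 20 degrees Celsius. The *D. melanogaster* flies were of strain 14021-0231.36, which carried no transgene named in the labels and was the only strain of that species sequenced. The *D. simulans* flies were of strain 14021-0251.195 and the *D. sechellia* flies of strain 14021-0428.25. Expression is given in FPKM (read fragments scaled to gene length and library size), and the authors' table holds 1 FPKM value per gene and food, combined over the 3 libraries. The values therefore have no SD and no n, the tables hold no read counts per gene, and the precision of a value is unknown. Log2 changes are L-DOPA over control, so that a negative change is a lower level on L-DOPA. In whole flies, fewer cells of a type and less RNA per cell cannot be told apart.

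In the Ensembl annotation of BDGP6, 5 of the 7 members lie on chromosome arm 3R and 2 on 2L. *TotA* (FBgn0028396, 3R:20871036-20871700), *TotC* (FBgn0044812, 3R:20872988-20873580), *TotB* (FBgn0038838, 3R:20873938-20874522) and *TotZ* (FBgn0044809, 3R:20877736-20878363) follow each other on the plus strand. The gaps between them are 1287, 357 and 3213 bases. *TotX* (FBgn0044810, 3R:20904917-20905518) lies 26553 bases beyond *TotZ* on the minus strand, inside an intron of *Grik*. *TotM* (FBgn0031701, 2L:5329857-5330464, plus strand) stands apart from the others. *TotF* (FBgn0044811, 2L:19911815-19912377, minus strand) lies inside an intron of *sick*, next to *Victoria* (FBgn0053117, 2L:19912938-19913516), a relative outside the members that the current annotation calls *TotE*.

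The members share a compact build. Their transcripts are 506 to 602 bases long and encode 125 (*TotF*) to 147 (*TotZ*) amino acids, and *TotA* and *TotC* both encode 129. *TotA*, *TotB*, *TotC*, *TotF*, *TotM* and *TotZ* each have 2 exons, of which the first carries 23 coding bases, followed by a short intron of 55 bases (*TotZ*) to 86 bases (*TotA*). *TotX* differs in having 1 exon. No exon of another gene overlaps a member, but reads of closely related Turandot genes could be split between them by the alignment, and whether the libraries kept strand is not given in the sources used here.

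On control food the members fell into abundant and nearly silent genes. *TotC* had the highest level, at an FPKM of 214.5, with 618 genes of the table above it. *TotA*, the founding member and the usual marker of the humoral stress response, was at 151.7, and *TotM*, linked to defence against a fungus passed at mating, was at 90.2. *TotX* was at 55.97. *TotB*, the gene between *TotC* and *TotZ*, was at 0.934, and both *TotZ* and *TotF* were listed at 0. The order from *TotC* to *TotB* was the same on L-DOPA, and with 1 value per food it was not possible to say which neighbours in this order differ beyond their spread.

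On L-DOPA, the 4 abundant Turandot genes were all lower than on control food. *TotA* was at 151.7 FPKM with control food and at 83.2 with L-DOPA. Its log2 change was -0.87, so that 54.8% of the control level was left. *TotA* had the largest change of the 5 members for which one is given. Of the 10490 genes that reached 1 FPKM and were not at 0 on any food, 125 others (1.19%) were lower by as much or more.

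*TotM* was at 90.2 FPKM with control food and at 54.5 with L-DOPA, a log2 change of -0.73. A change at least as low was found for 165 other genes (1.57%). *TotC* was at 214.5 FPKM with control food and at 144.5 with L-DOPA, a log2 change of -0.57, and 251 other genes (2.39%) were at least as low. In FPKM the differences of *TotC* (-70.0) and *TotA* (-68.6) were nearly equal, although *TotC* kept more of its control level.

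The change of *TotX* was smaller. It was at 55.97 FPKM with control food and at 48.2 with L-DOPA, a log2 change of -0.22, and 961 other genes (9.16%) were at least as low. *TotM* stood above *TotX* by an FPKM of 34.2 on control food and by 6.32 on L-DOPA. Among genes of like abundance (a mean over both foods no more than 2-fold from that of the member), changes as low were found for 9 of 1350 genes (*TotA*), 16 of 2057 (*TotM*), 11 of 942 (*TotC*) and 143 of 2553 (*TotX*).

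**Figure D1:**
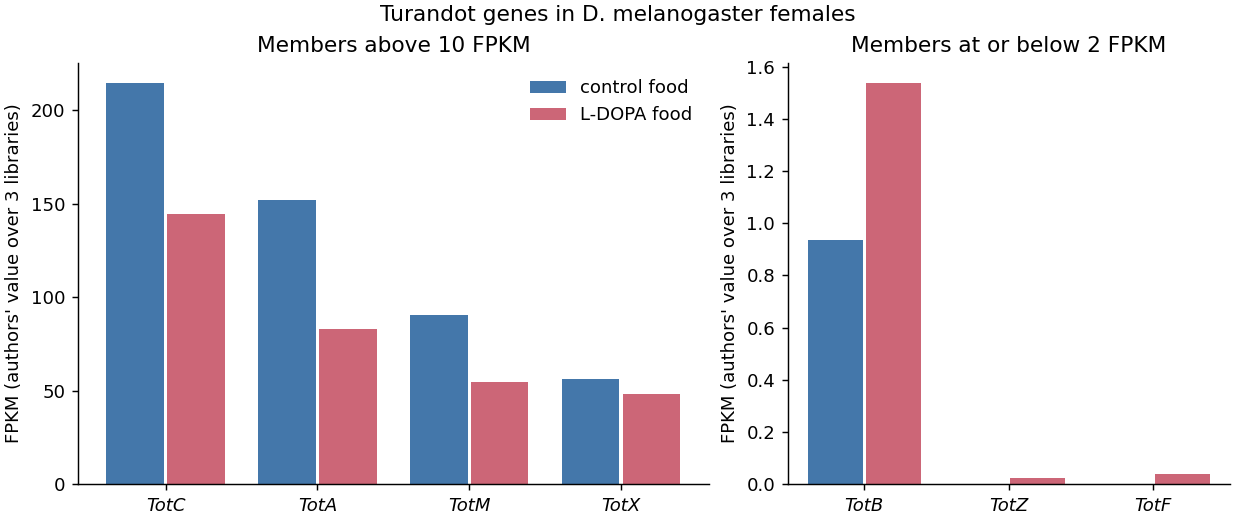
FPKM of each Turandot gene in *D. melanogaster* females on control food (blue) and L-DOPA food (red), each bar being the authors' single value over 3 libraries, with separate axes for the abundant and the low members. *TotC*, *TotA*, *TotM* and *TotX* are lower on L-DOPA, while *TotB* stays at or below 1.54 and *TotZ* and *TotF* at or below 0.0393.

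The remaining members were at very low levels on both foods. *TotB* was at 0.934 FPKM with control food and at 1.54 with L-DOPA, a log2 change of 0.72 in the opposite direction to its neighbours *TotA* and *TotC*. Over all genes 2.35% were higher by as much, and near its level 73 of the 1114 other genes within 2-fold of its mean FPKM (6.55%) were. With a pseudocount of 1 the log2 change of *TotB* was 0.39. *TotZ* was listed at 0 FPKM with control food and at 0.0213 with L-DOPA, and *TotF* at 0 and 0.0393, so that no fold is given. *Victoria* was listed at 0 on both foods.

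In all, 5 of the 7 members reached 1 FPKM on control food, L-DOPA or both, of which 4 were lower on L-DOPA and 1, *TotB*, was higher. Their median log2 change was -0.57, while the median of the 10490 genes was 0.00. The changes of 95% of them, leaving out equal shares at each end, lay between -0.54 and 0.69. At a 2-fold change, 0 of these members were lower and 0 were higher, against 0.963% and 1.17% of the 10490 genes. At a 1.5-fold change, *TotA* and *TotM* were lower and *TotB* higher, against 2.25% and 3.35% of all these genes, and *TotC* lay just outside at 1.48-fold. *TotB* reached 1 FPKM only on L-DOPA, the food where it was higher, so its place in these counts follows in part from that minimum. These shares are the background of the contrast from which the members were chosen.

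**Figure D2:**
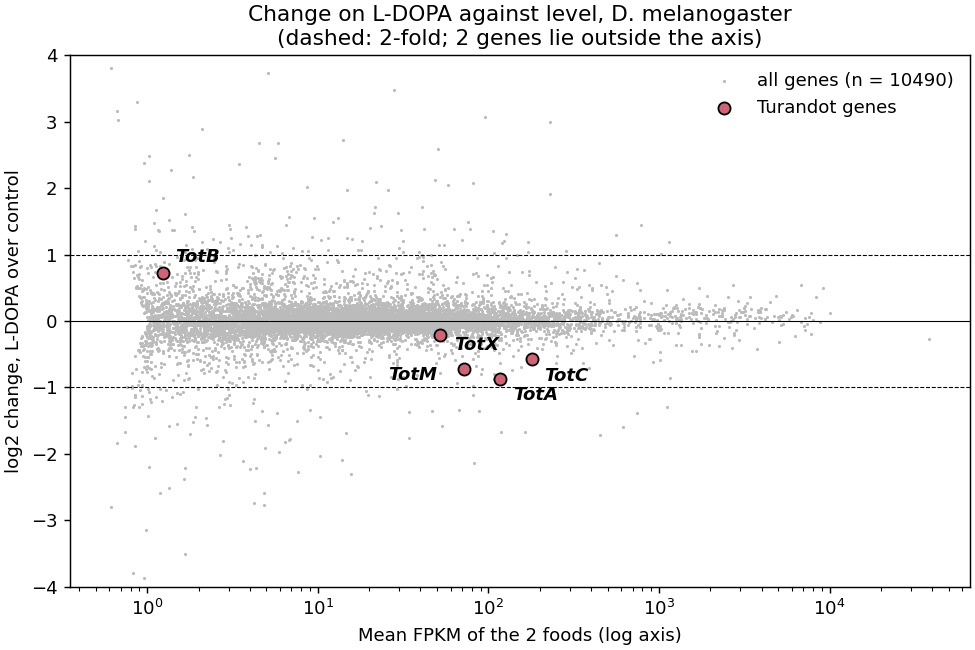
Log2 change (L-DOPA over control) against the mean FPKM of the 2 foods on a log axis for 10490 *D. melanogaster* genes (grey), with the 5 Turandot genes above the FPKM minimum in red and dashed lines at 2-fold. *TotA*, *TotM* and *TotC* lie low among genes of like level, *TotX* lies nearer to 0 and *TotB* sits in the wide spread of genes near an FPKM of 1.

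Summed over the 7 members, the level was 513 FPKM with control food and 332 with L-DOPA, or 64.7% of the control value. *TotC* made up 41.8% of it without L-DOPA and 43.5% with it, and *TotA* 29.6% and 25.05%. *TotM* made up 17.6% and 16.4%, and *TotX* 10.9% and 14.5%. The ratio of *TotC* to *TotA* was 1.41 without L-DOPA and 1.74 with it.

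Genes around the members were read in the same way. Within 20 kb of a member, 30 other genes are in the table, and 15 of these reached 1 FPKM and were not at 0 on any food. Their median log2 change was -0.07, with 0 genes higher and 1 gene lower by at least 1.5-fold, against the 3.35% and 2.25% of all genes given above. The latter, the non-coding *CR44985* near *TotM*, was at 1.33 FPKM with control food and at 0.364 with L-DOPA, and so reached 1 FPKM only on control food. The next lowest were *CR44106* near *TotX* (log2 change -0.54) and *CG14024* near *TotM* (-0.49). *Grik*, the glutamate receptor gene that holds *TotX*, had a log2 change of 0.06. *CG14022*, 978 bases before *TotM*, was at 118 FPKM with control food and at 119 with L-DOPA, and *fusl*, whose gene ends 6 bases after that of *TotM*, had a log2 change of -0.07.

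Most transcripts of the pathway that turns Turandot genes on were at like levels on both foods. Of 16 JAK/STAT genes listed, 15 are in the table and 12 reached 1 FPKM. None of the 12 was higher or lower by 1.5-fold, against 3.35% and 2.25% of all genes. At these shares a list this short would often hold none. The median log2 change of the 12 was -0.01 (range -0.18 to 0.10). The ligand genes were almost silent, with *upd1* at 0.335 FPKM with control food and at 0.374 with L-DOPA. *upd3*, the cytokine that blood cells send to the fat body, was at 0.113 and 0.0836. *upd2* was at 0.0675 and 0.0262.

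The receptor gene *dome* was at 12.7 FPKM with control food and at 11.6 with L-DOPA, and the kinase gene *hop* at 7.57 and 8.01. *Stat92E*, the transcription factor, was at 39.6 and 41.4. *et*, which encodes a short receptor that dampens the pathway, was at 3.28 and 3.08. *Socs36E*, a feedback inhibitor that Stat92E itself turns on, was at 4.30 and 4.32, a log2 change of 0.01. These are RNA levels of whole flies and do not measure signalling in the fat body, which was not tested.

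Signalling genes of the stress kinase and Imd pathways were listed in the same way. In the stress MAP kinase list, 0 of 19 genes were higher or lower by 1.5-fold, against 3.35% and 2.25% of all genes. At these shares a list of this length would often hold none. The median log2 change of the 19 was -0.02. *Mekk1* was at 10.0104 FPKM with control food and at 10.6 with L-DOPA, and *lic*, the kinase that acts on p38, was at 41.4 and 39.8. The log2 change was 0.03 for *p38b*, -0.06 for its target factor *Atf-2*, -0.10 for the JNK gene *bsk* and -0.12 for *puc*, the phosphatase gene that JNK signalling turns on.

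In the Imd list, 0 of 14 genes were higher or lower by 1.5-fold, against 3.35% and 2.25% of all genes. This list too is short enough to often hold none at these shares. The median log2 change of the 14 was -0.03. Of the 14, 9 were lower on L-DOPA. The lowest was *PGRP-SC1a*, an enzyme that breaks down bacterial peptidoglycan, with a log2 change of -0.50. The highest was *PGRP-LB* at 0.07, and *pirk* was at 0.002. The adaptor gene *imd* was at 16.2 FPKM with control food and at 13.8 with L-DOPA, and *Rel*, which encodes Relish, was at 21.4 and 21.5. This list holds receptors, signalling genes and regulators and no antimicrobial peptide gene. Among antibacterial genes that the Imd pathway turns on, the attacin genes *AttA*, *AttB* and *AttC*, named after their values were seen, were lower on L-DOPA. Their log2 changes were -0.86, -1.82 and -2.04. The pathway's target genes were not gathered as a list here, so the attacins do not show how they moved as a set. *Listericin*, an antibacterial protein gene of the next list, went the other way, with a log2 change of 0.75.

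Other genes known to answer to JAK/STAT signalling were also listed. Of 9 listed, 8 reached 1 FPKM, and 2 of the 8 were lower on L-DOPA. The others were higher, among them *Tep2* (log2 change 0.20) and *Tep4* (0.11). The median log2 change of the 8 was 0.15, opposite in direction to that of the Turandot genes. *Listericin*, an antibacterial protein gene, was at 30.9 FPKM with control food and at 52.1 with L-DOPA. Its log2 change of 0.75 was the only one of the 8 past 1.5-fold, against 3.35% of all genes higher and 2.25% lower. The lower genes were *CG13559*, at 1.26 and 0.993 (log2 change -0.34), and the virus-induced gene *vir-1*, at 429 and 410 (-0.07).

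Heat shock genes, which share inducers with the Turandot genes, were close to their control levels. None of the 16 was higher or lower by 1.5-fold, against 3.35% and 2.25% of all genes. Their median log2 change was -0.03 (range -0.26 to 0.32). *Hsf*, which encodes the heat shock factor, had a log2 change of 0.02. Over these 5 lists together, 69 genes had a change, with a median log2 change of -0.01. Of these, 0 were as low as *TotC*, against 2.39% of all genes. At that share few or none of the 69 would be so low, so the count does not set the lists apart.

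**Figure D3:**
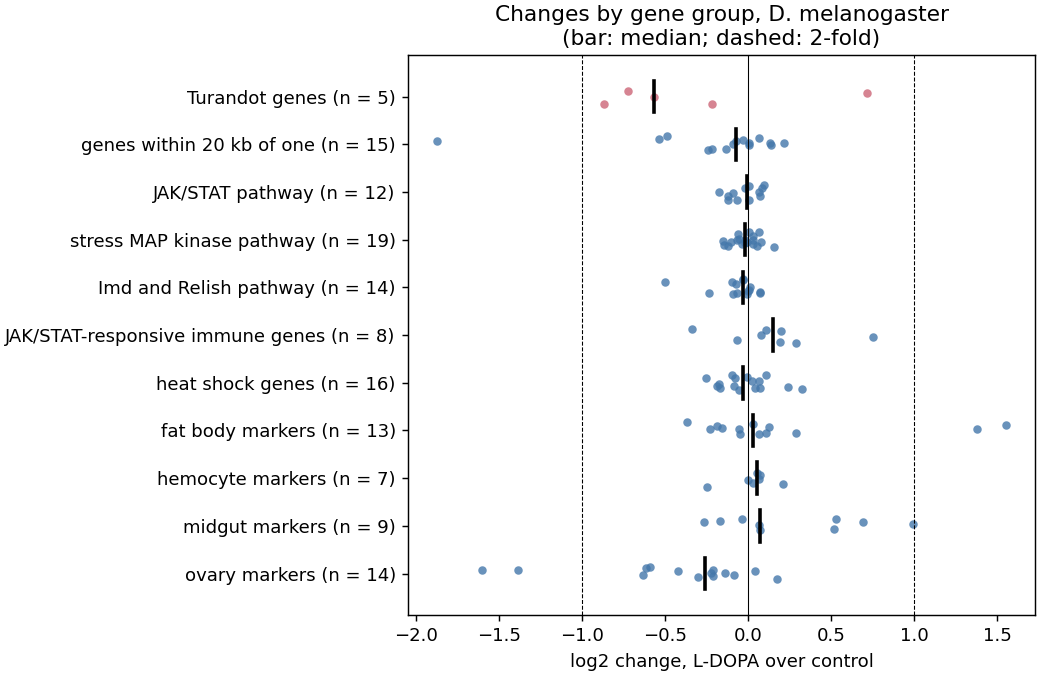
Log2 change (L-DOPA over control) of the 5 Turandot genes above the FPKM minimum (red), of genes within 20 kb of a member, and of the pathway and cell type marker lists in *D. melanogaster* (blue), with a bar at each median and dashed lines at 2-fold. The Turandot median is -0.57, the medians of the 5 pathway lists lie between -0.03 and 0.15, and that of the ovary markers is -0.26.

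Markers of the tissues in a whole female were read beside these values. Of 13 fat body markers, 6 were lower on L-DOPA, 0 by 1.5-fold, against 2.25% of all genes. The summed FPKM of the 13 was 24754.8 with control food and 23805.4 with L-DOPA. Most of it came from the yolk protein genes *Yp1*, *Yp2* and *Yp3* and from *Adh*, so the sum does not measure fat body content. Past 2-fold in that list were only 2 genes, both higher, against 1.17% of all genes. *Fbp1*, the fat body receptor for larval serum proteins, was at 6.69 FPKM with control food and at 19.7 with L-DOPA, and *Fbp2*, a fat body protein related to alcohol dehydrogenase, at 17.1 and 44.4. The summed FPKM of 9 hemocyte markers was 149 and 154, with *Hml* at 1.90 and 2.20. Most of it came from *crq* (74.0 and 77.6) and *Col4a1* (45.8 and 47.4), so this sum does not measure hemocyte content. For 11 midgut markers the sum was 5184.05 and 5531.56, most of it from *alphaTry*, *Jon99Cii* and *betaTry*, and it does not measure midgut content. Of the 9 of these that reached 1 FPKM, 2 (*Mal-A1* and *Jon99Ci*) were higher by 1.5-fold, against 3.35% of all genes.

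Of the 14 ovary markers, 12 were below their control level and 5 were lower by at least 1.5-fold, against 2.25% of all genes. All 5 are eggshell genes: *Cp18* (log2 change -1.60), *Cp16* (-1.38), *dec-1* (-0.63), *Cp15* (-0.62) and *Vm32E* (-0.59). The germline markers among the 14 ran from -0.30 (*otu*) to 0.17 (*bam*). The summed FPKM of the 14, most of it from eggshell genes, was 11179.5 with control food and 7602.17 with L-DOPA. The 12 male reproductive markers found had an FPKM of at most 0.823, and 4 of them were listed at 0 on both foods. None of the marker lists has a gene at 0 on both foods other than the male list. The part of tissue make-up in the Turandot values was not tested.

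Likeness to the members' median log2 change could be read from only 2 values per gene. That median is the value of *TotC*, while the members ran from -0.87 (*TotA*) to 0.72 (*TotB*), so the likeness is to 1 value and not to a shared pattern. Among 6590 other genes with an FPKM of at least 10 on control food, the 5 whose log2 change lay nearest to the members' median were *CG17169*, *28SrRNA-Psi:CR45862*, *CG7194*, *Idgf1* and *CR43916*. Their log2 changes ran from -0.58 to -0.56. *Idgf1*, which encodes a secreted chitinase-like growth factor, was at 60.9 FPKM with control food and at 41.3 with L-DOPA.

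In the other species only a few genes of these pathways carry a name in the tables. In *D. simulans* the log2 changes of the JAK/STAT and stress kinase genes found were -0.02 (*hop*), -0.12 (*Tak1*) and -0.01 (*lic*). Those of the 5 Imd genes ran from -0.19 (*Dredd*) to 0.28 (*PGRP-SC2*), with *Rel* at 0.09. Those of the 8 heat shock genes named there ran from -0.60 (*Hsp70Ab*) to -0.04 (*Hsf*), beside a median of -0.08 over all genes of that table. In *D. sechellia* the log2 change was -0.18 for *Rel*, -0.08 for *Hsp83*, 0.38 for *Hsp68* and 0.55 for *DnaJ-1*, beside a median of 0.10. The *Tep2* and *Tep4* genes, which answer to JAK/STAT signalling, were at -0.00 and 0.17 in *D. simulans* and at 0.26 and 0.05 in *D. sechellia*. These tables were normalized separately, and no comparison of Turandot levels between the species was made.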

How the data were processed

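RNA-seq of 18 libraries from whole females was deposited as 1 table per species. The authors mapped single-end reads with Bowtie2 (BDGP6, ASM75419v3 and dsec_caf1) and quantified genes with Cuffdiff, using its geometric library scaling and length correction. Versions are not given in the sources used here. The deposited FPKM values are 1 per gene and food, combined over 3 libraries, so no test across libraries was run. The authors' fold changes, test scores, p-values and q-values in these tables were not used. Groups were taken from the sample labels.

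Members, lists and limits were chosen with earlier results of these data known. The text names every member, the main signalling genes, pathway genes past 2-fold, relatives and the 5 genes nearest to the members' median. Other genes (*PGRP-SC1a*, *PGRP-LB*, *pirk*, *Listericin*, *vir-1*, *Tep2*, *Tep4*, *Hml*, *crq*, *Col4a1*, *alphaTry*, *Jon99Cii*, *betaTry*, *Mal-A1*, *Jon99Ci*, *Fbp1*, *Fbp2*, *Yp1*, *Yp2*, *Yp3*, *Adh*, *Cp15*, *Cp16*, *Cp18*, *dec-1*, *Vm32E*, *otu*, *bam*, the attacins, *CG13559*, neighbours and the genes of the other species) were chosen after their values were seen. *TotP* and *Bcl6* matched no symbol. Log2 changes used no pseudocount and were taken for genes that reached 1 FPKM on any food and were not at 0 on any food. Coordinates, counted from 1, are from Ensembl release 115 of BDGP6, which holds 17512 of the 17649 identifiers. Computations used Python 3.11.15, numpy 2.4.6 and pandas 2.3.3 and were tested on simulated data. Alternatives were other pseudocounts, FPKM minimums, folds and scalings.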

Additional observations from a re-analysis of the deposited data

How the results depend on the processing

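The median log2 change of the members lay between -0.65 (FPKM minimum of 10, without *TotB*) and -0.57 under every alternative run, and that of the 5 pathway lists together between -0.04 and -0.01. Of 87 values under an alternative, 82 stayed close to the reported value (log2 changes by less than 0.1, counts within 1.5 times), 5 moved and 0 changed direction. Part of the 82 could not move. Another fold limit leaves every log2 change and median as it is, and another FPKM minimum leaves the log2 change of a single gene as it is. At a 1.5-fold limit 2 members were lower and 1 was higher, in place of 0 and 0, and 1 pathway gene (*Listericin*) was higher. Without an FPKM minimum 1 pathway gene (*upd2*) was lower by 2-fold. A pseudocount of 1 moved the log2 change of *TotB* from 0.72 to 0.39. The log2 changes of *TotA*, *TotC*, *TotM* and *TotX* moved by less than 0.1 under each alternative. No paired analysis was possible because each food has 1 combined value per gene, and for the same reason no library could be left out. The alternatives for *D. simulans* and *D. sechellia* were not run, since their tables list no member by symbol. Low levels limit *TotB*, *TotZ* and *TotF*, for which the number of reads behind a value was not analysed here.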
